A study of Mus musculus with 4 samples.

Results

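A set of 10 mitophagy genes, of 50600 in the deposited count table, was followed in epithelial cells isolated from the colon of C57BL/6 mice with an intact Mettl14 gene (WT, 2 libraries) or with Mettl14 knocked out (KO, 2 libraries). They were found by symbol and comprise Bnip3, Bnip3l, Fundc1, Bcl2l13, Phb2, Optn, Sqstm1, Nbr1, Calcoco1 and Pink1. Lower Bnip3 and Pink1 in KO were known when the set was drawn up, and the set was in part selected on those KO and WT values, which are therefore given as a description and support nothing by themselves. METTL14 is the RNA-binding partner of METTL3 in the enzyme that writes N6-methyladenosine (m6A) on mRNA. The labels name no treatment, and age, allele and any Cre driver were not given in the sources used here, nor was the meaning of a code, 2W, that all 4 sample titles carry.

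Mitophagy is the removal of damaged or surplus mitochondria by autophagy. Receptors on the mitochondrion carry a short motif that binds ATG8 proteins (the LC3 and GABARAP families) on the growing autophagosome membrane. In the ubiquitin route, the kinase PINK1 builds up on depolarised mitochondria, phosphorylates ubiquitin and activates the ubiquitin ligase parkin, and adaptors such as optineurin and p62 then tie the ubiquitin coat to ATG8 proteins. BNIP3, its close relative BNIP3L (also called NIX) and FUNDC1 act without ubiquitin and are known for responses to low oxygen, a state in which the surface epithelium of the colon normally lives.

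Library totals ran from 22136440 to 24991060 counts, and all 10 genes passed the filter on low counts, as did 14861 genes in all. Levels are CPM (counts relative to the total of the library) after scaling by trimmed mean of M-values (TMM), and each library's value is given. Mettl14 itself stood at 11.7 and 8.67 CPM in WT and at 3.99 and 3.94 CPM in KO. Its KO mean was 0.39 of its WT mean, and it did not pass the threshold of 0.05 (edgeR adjusted p = 0.0504). Each genotype held 1 male and 1 female library by Xist and Y-linked transcripts. Epithelial markers were abundant in every library, with a summed level of 6998 and 8866 CPM in WT and 6614 and 5947 CPM in KO over 8 genes. KO replicate 2 stood apart in fibroblast markers (565 CPM against 52.6 to 75.9 CPM in the other libraries) and haemoglobin genes (6560 CPM against 1334 to 2696 CPM). Without it the log2 fold change of KO over WT was -1.43 for Bnip3 and -0.88 for Pink1, against -1.57 and -0.94 with it.

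The start sites of the pair of genes named as lower are shown because BNIP3 is a textbook target of hypoxia-inducible factor 1 (HIF-1), which binds the letters ACGTG or GCGTG. The sequences are those of RefSeq (GRCm38.p6), 250 bases before to 50 after the annotated start, on the gene's own strand, with matches to either form on either strand in capitals.
Bnip3 (chr7:138909457-138909756, minus strand): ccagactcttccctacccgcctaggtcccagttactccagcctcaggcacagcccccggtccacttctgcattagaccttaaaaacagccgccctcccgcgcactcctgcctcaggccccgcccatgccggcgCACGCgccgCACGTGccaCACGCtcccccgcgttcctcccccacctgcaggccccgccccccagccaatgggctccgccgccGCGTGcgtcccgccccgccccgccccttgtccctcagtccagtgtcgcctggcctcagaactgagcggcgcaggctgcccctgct
Pink1 (chr4:138326247-138326546, minus strand): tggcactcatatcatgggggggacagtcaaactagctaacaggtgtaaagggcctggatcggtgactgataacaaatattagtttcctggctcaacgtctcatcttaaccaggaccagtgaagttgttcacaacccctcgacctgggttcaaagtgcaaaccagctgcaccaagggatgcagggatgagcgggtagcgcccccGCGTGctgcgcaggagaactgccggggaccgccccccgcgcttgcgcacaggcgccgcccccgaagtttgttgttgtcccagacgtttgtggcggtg
In Bnip3 a pair of ACGTG matches, 1 on each strand, overlap at -108 and -107 from the start and together spell CACGTG, which is also the E-box bound by many basic helix-loop-helix factors. GCGTG matched 3 more times in Bnip3, at -117, -99 and -35, and once in Pink1, at -47. Among 10 promoters listed for 9 of the genes (Nbr1 has a pair, Bnip3l was not matched), ACGTG was found in 3 (Bnip3, Phb2 and 1 of Nbr1) and GCGTG in 5. Of all 32851 promoters of the same 300 bases, 19.6% held ACGTG and 32.4% held GCGTG. The letters TGTTTAC, a FOXO site, were in none of the 10 and in 3.65% of all. CACGTGAC, part of the site of the lysosomal regulator TFEB, was in none and in 2.25% of all. TGACNNNGC, the core of the site for the oxidative stress factor NRF2, was in 1 (Bcl2l13) and in 12.4% of all.

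METTL14 acts on mRNA at a consensus whose commonest form is GGACT, so the longest coding transcript of each gene in GENCODE M21 was searched for these 5 letters. Bnip3 (1756 bases) and Bnip3l (3259 bases) had 0 matches, in this transcript as in the other annotated coding transcript of each. Among tested genes, 999 of 13532 transcripts (7.38%) had 0, and the share was 12.2% and 3.12% among transcripts within 1.25-fold of the length of Bnip3 and Bnip3l. Nbr1, Fundc1 and Optn had a match at or near the stop codon, the region where m6A is typically densest, and Pink1 had both of its matches in the coding sequence. These 25-base windows carry the match in capitals.
Nbr1 (chr11:101580749-101580773, plus strand): ccgctattgaGGACTgaccttgtat
Fundc1 (chrX:17557919-17557943, minus strand): ggcatcttaaGGACTtgaaggctct
Optn (chr2:5021352-5021376, minus strand): tccatgtgatGGACTgcatcatttg
Pink1 (chr4:138320770-138320794, minus strand): caggctccagGGACTcccacctttc
In Nbr1 and Fundc1 the match began at the first base after the stop codon, and in Optn 15 bases before its last base. Nbr1 had 10 matches in 4789 bases, of which 6 were coding and 2 in the 3' untranslated region. Bcl2l13 had 9 and Sqstm1 7, of which 8 and 6 lay in the 3' untranslated region. Phb2 had 4, in the shortest transcript (1318 bases). Calcoco1, Fundc1 and Optn had 1 each. A match was present in only 1 of the 5 annotated coding transcripts of Calcoco1 and in 2 of the 3 of Pink1. For the other genes with matches, every such transcript held at least 1. Other forms of the consensus were not counted, a match does not show that the base is methylated, and m6A was not measured in these libraries. Over all tested genes the median log2 fold change (KO over WT) was -0.0252 for transcripts with 0 matches and -0.000714 for those with at least 1.

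**Figure D1:**
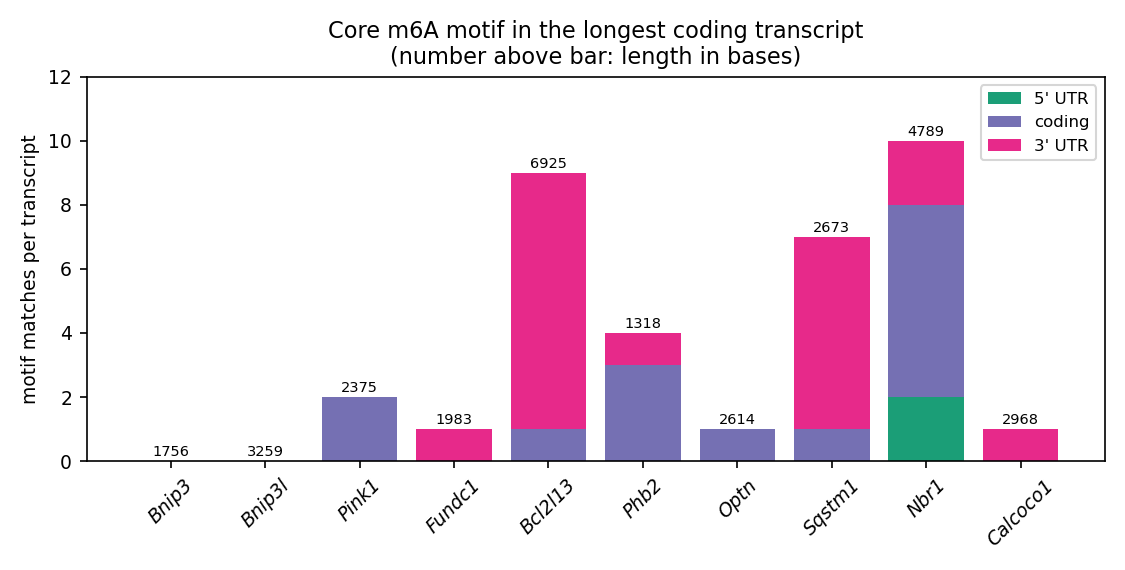
Number of core m6A motif matches in the longest coding transcript of each of the 10 genes (bars, split by transcript region, with the transcript length in bases above). Bnip3 and Bnip3l have 0, and Nbr1 has the most with 10.

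The outer membrane receptors differed widely among themselves. Bnip3 (ENSMUSG00000078566, chromosome 7, 138890836 to 138909519), a BH3-like membrane protein, stood at 128 and 191 CPM in WT replicates 1 and 2 and at 58.4 and 49.0 CPM in KO replicates 1 and 2. Both KO libraries were far below the lower WT library, and the WT libraries were 1.49-fold apart. Mean CPM was 160 ± 44.2 for WT and 53.7 ± 6.69 for KO (SD, n = 2), 2.97-fold higher in WT, with a log2 fold change of -1.57 (SE 0.23).

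Bnip3l (ENSMUSG00000022051, chromosome 14, 66985239 to 67008877), the receptor that clears mitochondria from maturing red cells, had a smaller difference and little spread. It stood at 98.2 and 105.2 CPM in WT and at 62.1 and 63.8 CPM in KO, groups that did not overlap. The log2 fold change was -0.69 (SE 0.10). Its copy Bnip3l-ps held 4 to 10 counts per library against 1400 to 2499 for the gene.

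Fundc1 (ENSMUSG00000025040, chromosome X, 17556564 to 17572325), a receptor regulated by phosphorylation, was the least abundant of the 10 by CPM, at 10.4 and 10.9 in WT and 10.1 and 9.86 in KO. Bcl2l13 (ENSMUSG00000009112, chromosome 6, 120836212 to 120892842), regarded as a mammalian counterpart of the yeast receptor Atg32, stood at 40.4 and 38.3 CPM in WT and 39.2 and 39.2 CPM in KO, and was the 1 gene of the 10 whose genotypes overlapped. The log2 fold changes were -0.10 (SE 0.14) and 0.00 (SE 0.09), and both signs depended on the scaling, with 0.07 for Fundc1 and 0.16 for Bcl2l13 when libraries were scaled by size alone. Reads of Bcl2l13 may be shared with Bid on the opposite strand, which overlaps 628 of its exon bases and held 206 to 319 counts.

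Pink1 (ENSMUSG00000028756, chromosome 4, 138313409 to 138326307) was at 108 and 100.9 CPM in WT and at 56.0 and 52.7 CPM in KO. Every KO library lay near 50 CPM and every WT library above 100 CPM, so the gap was many times the spread within either genotype. Mean CPM was 104.6 ± 5.29 for WT and 54.3 ± 2.28 for KO (SD, n = 2), with a log2 fold change of -0.94 (SE 0.11). Phb2 (ENSMUSG00000004264, chromosome 6, 124712336 to 124716950) is an inner membrane scaffold that serves as a receptor once the outer membrane has ruptured. It was the 1 gene of the set with a positive log2 fold change in the fit of all libraries, 0.31 (SE 0.14). The difference did not pass (edgeR adjusted p = 0.209). Phb2 was at 67.4 and 54.2 CPM in WT and 74.5 and 76.1 CPM in KO, with WT replicate 2 lowest. Its log2 fold change became 0.19 without WT replicate 2 and 0.46 without WT replicate 1.

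Of the soluble receptors, Nbr1 and Calcoco1 varied least within a genotype, whereas Sqstm1 varied more within WT and Optn within KO. Nbr1 (ENSMUSG00000017119, chromosome 11, 101552149 to 101581951), a ubiquitin-binding adaptor that also serves peroxisome and aggregate removal, was at 173 and 171 CPM in WT and 104 and 104 CPM in KO, with libraries of a genotype less than 1.01-fold apart. Its log2 fold change was -0.73 (SE 0.11). Calcoco1 (ENSMUSG00000023055, chromosome 15, 102706777 to 102722178), a receptor for the endoplasmic reticulum and Golgi, stood at 17.2 and 17.8 CPM in WT and 12.1 and 10.7 CPM in KO (log2 fold change -0.62, SE 0.13).

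Sqstm1 (ENSMUSG00000015837, chromosome 11, 50199366 to 50210827), which encodes p62, was at 196 and 300 CPM in WT and 186 and 179 CPM in KO. WT replicate 2 stood apart at 1.53-fold above WT replicate 1, which was close to the KO libraries. The log2 fold change of -0.44 (SE 0.23) became -0.07 without WT replicate 2 and -0.73 without WT replicate 1. Optn (ENSMUSG00000026672, chromosome 2, 5020642 to 5064051), which encodes optineurin, was at 61.1 and 57.8 CPM in WT and at 39.8 and 52.5 CPM in KO, where replicate 1 was the low library. Its log2 fold change of -0.37 (SE 0.16) became -0.56 without KO replicate 2 and -0.19 without KO replicate 1. The gene Mrnip, on the strand opposite Sqstm1, overlaps 580 of its exon bases and held 10 to 30 counts.

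**Figure D2:**
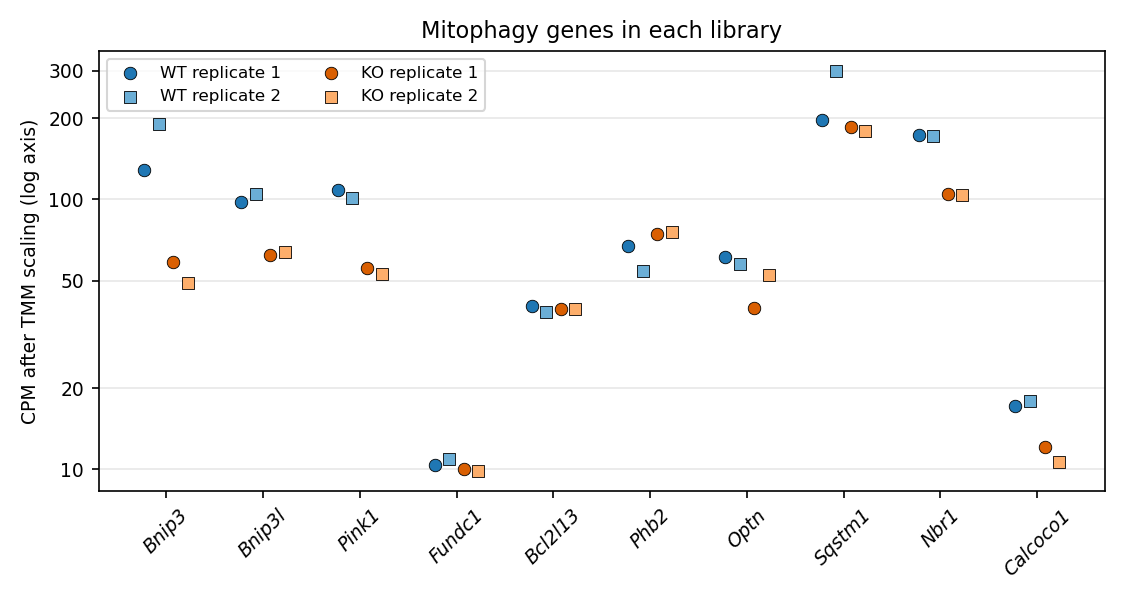
CPM after TMM scaling (log axis) of each gene in each of the 4 libraries (blue, WT; orange, KO; circles, replicate 1; squares, replicate 2). Bnip3 is at 128 and 191 CPM in WT against 58.4 and 49.0 CPM in KO, and Bcl2l13 stays between 38.3 and 40.4 CPM in all libraries.

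In the fit over all genes, 4 of the 10 had an adjusted p under 0.05 by edgeR's quasi-likelihood test (Bnip3, Bnip3l, Pink1 and Nbr1, all lower in KO) and 0 were called higher. Of all tested genes 3.61% were called, 1.72% higher and 1.90% lower. The groups did not overlap for 8 of the 10 with KO lower and for 1 with KO higher, against 32.2% and 31.1% of all tested genes. The median log2 fold change was -0.53 for the 10 and -0.01 for all. Nothing is read from these counts, since the set was drawn up with this comparison in view. Calls were fewer with relative log expression (RLE) factors, where 1 gene of the 10 (Pink1) and 436 of all 14861 genes were called. Scaling by library size called 2 of the 10 (Bnip3 and Pink1) and 790 of all genes. Leaving out a library leaves 1 in its genotype, so only the median log2 fold change of the 10 is given here. It was -0.58 without KO replicate 1 and -0.54 without KO replicate 2. It was -0.69 without WT replicate 1 and -0.47 without WT replicate 2. DESeq2, which called 12.9% of all genes, and the fit with sex as a covariate, which called 9.48%, each called 4 of the 10.

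KO minus WT log2 CPM was -1.38 in the male and -1.70 in the female pair of libraries for Bnip3. It was -1.03 and -0.84 for Pink1, -0.62 and -0.76 for Bnip3l, -0.74 and -0.71 for Nbr1 and -0.66 and -0.54 for Calcoco1. It was -0.13 and -0.69 for Sqstm1, whose pairs lay farthest apart of the 10 genes, -0.22 and -0.53 for Optn and 0.17 and 0.46 for Phb2. These are single pairs and the difference between them was not tested.

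**Figure D3:**
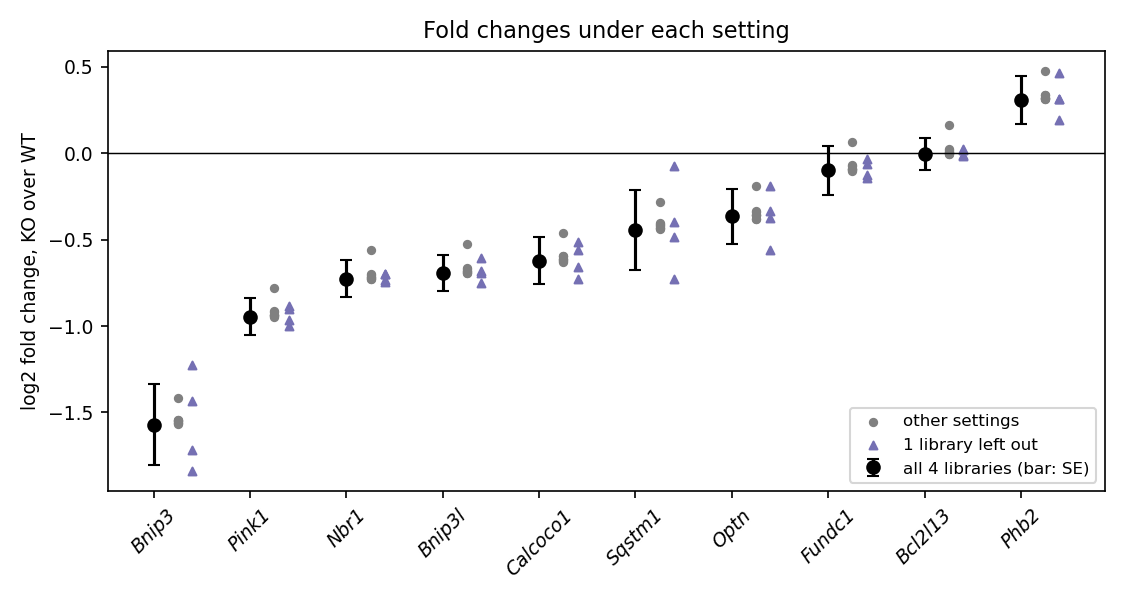
Log2 fold change of KO over WT for each gene in the fit of 4 libraries (black, bar SE), with 8 other settings (grey) and with 1 library left out (triangles). Bnip3 ranges from -1.84 to -1.22 and Pink1 from -1.0003 to -0.78, whereas Sqstm1 reaches -0.07.

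Levels were compared between genes as CPM per kilobase of annotated exon, a scale that understates genes whose long annotated isoforms are not used. In WT the order was Sqstm1 (73.9 ± 21.8), Bnip3 (70.5 ± 19.5), Pink1 (39.1 ± 1.98), Bnip3l (26.3 ± 1.28), Nbr1 (25.05 ± 0.14), Phb2 (16.3 ± 2.52), Optn (15.8 ± 0.624), Fundc1 (4.54 ± 0.161), Bcl2l13 (4.33 ± 0.165) and Calcoco1 (3.06 ± 0.0795) (CPM per kb, SD, n = 2). Sqstm1 and Bnip3 overlapped, as did Phb2 and Optn, and Fundc1 and Bcl2l13. In KO the leading gene was Sqstm1 at 54.3 ± 1.5, and Bnip3 at 23.7 ± 2.95 stood just above Pink1 (20.3 ± 0.855) and Phb2 (20.2 ± 0.3). Sqstm1, Bnip3 and Pink1 lay above the level of 96.9%, 95.8% and 93.1% of tested genes over the 4 libraries, and Calcoco1 above 47.4%.

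The summed level of the 10 genes was 253 and 305 CPM per kb in WT and 175 and 171 in KO. Bnip3 made up 22.4% and 27.6% of that sum in WT and 14.8% and 12.6% in KO. Sqstm1 took 23.1% and 29.2% in WT and 31.7% and 31.1% in KO, and Phb2 7.18% and 4.77% against 11.5% and 11.96%. Bnip3 exceeded Bnip3l by 2.23- and 3.09-fold in WT and by 1.60- and 1.31-fold in KO on the same scale.

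**Figure D4:**
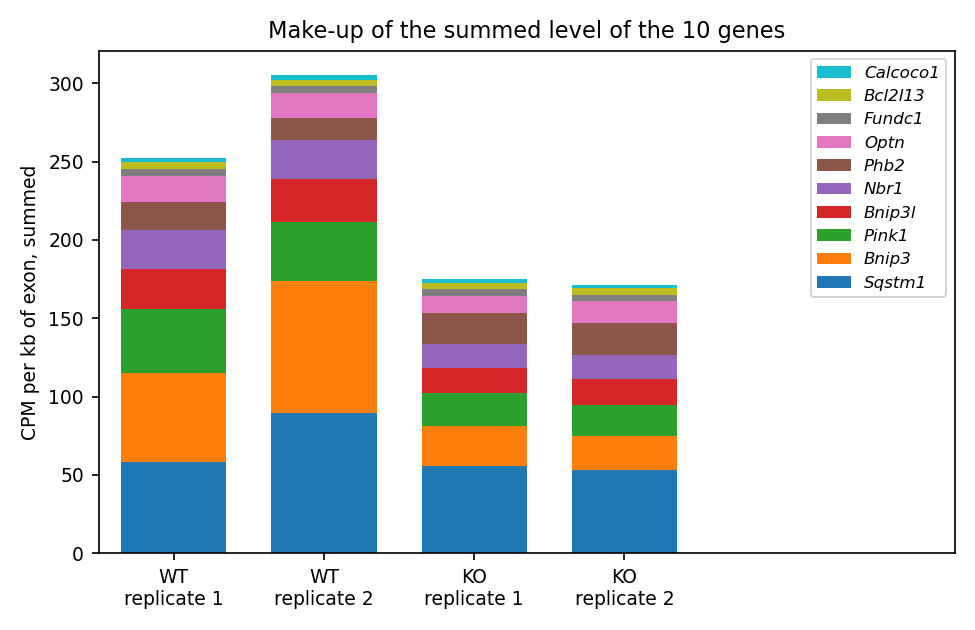
CPM per kilobase of exon of the 10 genes, stacked for each library. The stacks reach 253 and 305 in WT and 175 and 171 in KO, and the Bnip3 segment is the one that shrinks most.

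Within WT, Bnip3 and Sqstm1 were the least steady, both higher in replicate 2, and the 8 other genes differed at most 1.24-fold between the WT libraries. Within KO the widest gap was 1.32-fold, for Optn. By distance between centred log2 CPM over the 4 libraries, the genes most like Bnip3 among 9727 candidates were Sema7a (distance 0.23), Pacsin3 (0.24) and Slc15a1 (0.25). Those most like Pink1 were Cutal (0.06), Ezh1 (0.06) and Txnip (0.06). Txnip, a thioredoxin inhibitor, was at 1030 and 921 CPM in WT and 517 and 509 CPM in KO.

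The genes around these 10 were taken from 13 lists of pathway partners and candidate upstream programmes, with 198 tested genes that were not among the 10. Of these, 1 rose and 14 fell by edgeR (adjusted p 0.0434 to 0.0469), 7.58% against 3.61% of all genes, with a median log2 fold change of -0.16 against -0.01. The lists were chosen with earlier results of these data known, so nothing is read from this share or median. With KO replicate 1 or KO replicate 2 left out, the median of the list genes was -0.17 and -0.14. It was -0.17 without WT replicate 1 and -0.12 without WT replicate 2. Scaling by library size, which moves the median of all genes by 0.17, called 2 higher and 7 lower and gave a median of 0.01.

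The ATG8 genes, whose proteins the receptors bind, gave 3 falls and 0 rises of 5, with a median log2 fold change of -0.80. All 5 were lower in KO with groups that did not overlap, as were 32.2% of all tested genes. Map1lc3a fell from 46.0 and 46.8 CPM in WT to 17.5 and 21.7 CPM in KO (log2 fold change -1.24, SE 0.14). Gabarap fell from 247 and 235 to 142 and 135 CPM (-0.80) and Gabarapl2 from 70.0 and 70.4 to 43.9 and 39.8 CPM (-0.75). The other two, Map1lc3b at 127 and 148 against 101.45 and 91.3 CPM and Gabarapl1 at 30.6 and 25.2 against 15.7 and 16.3 CPM, did not pass (edgeR adjusted p = 0.0881 and 0.0536). With scaling by library size 1 of the 5 was called. The median was -0.83 without KO replicate 1 and -0.74 without KO replicate 2.

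Among 17 tested genes for other selective autophagy receptors, 2 fell and 0 rose, with a median of -0.33. Ncoa4, the receptor that delivers ferritin to lysosomes, fell from 529 and 550 CPM in WT to 169 and 233 CPM in KO (log2 fold change -1.43, SE 0.20). Chdh, a choline dehydrogenase that also binds p62 on mitochondria, fell from 126 and 145 to 65.6 and 64.6 CPM (-1.05, SE 0.12). Tax1bp1, a ubiquitin adaptor chosen after its values were seen, was at 394 and 472 CPM in WT and 266 and 220 CPM in KO without passing (edgeR adjusted p = 0.0637). DESeq2 called 6 lower and 0 higher. Calcoco2, the gene of the adaptor NDP52, held 0 to 2 counts, at or under the limit of 3 counts that a count of 0 allows.

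Pink1 aside, 34 genes of the PINK1 and parkin pathway were tested. By edgeR 0 passed (3 up and 8 down with an unadjusted p under 0.05), DESeq2 called 1 higher and 4 lower, and the median log2 fold change was -0.10. In the edgeR fit 4532 of all 14861 tested genes had an unadjusted p under 0.05. This is the background for such counts here and below. The parkin gene itself, listed as Park2 and chosen after its values were seen, held 10 to 22 counts per library (0.421 to 1.06 CPM), while the channel gene Vdac2 was at 241 and 276 CPM in WT and 233 and 200 CPM in KO. The ubiquitin ligase gene Huwe1 was at 167 and 183 against 191 and 195 CPM. None of 15 tested genes on the fission and fusion list was called by edgeR either (2 up and 4 down at unadjusted p under 0.05, 0 and 2 by DESeq2). The mitofusin gene Mfn2, whose product PINK1 and parkin modify, stood at 123 and 144 CPM in WT and 82.9 and 68.3 CPM in KO. Its log2 fold change of -0.82 did not pass (edgeR adjusted p = 0.0579). The list also held the actin-bundling gene Misp, not a fission or fusion gene as such, at 406 and 469 against 341 and 354 CPM.

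Of 13 protease and prohibitin partner genes, Yme1l1, which encodes an inner membrane protease, fell from 83.9 and 77.3 to 49.3 and 47.9 CPM (log2 fold change -0.73), and 12 were not called. Mitochondrial mass markers gave 0 calls of 10 by edgeR and by DESeq2 (edgeR's unadjusted p was under 0.05 for 2 higher and 1 lower) and a median of -0.02. The ATP synthase gene Atp5b was at 989 and 1001 against 899 and 798 CPM, and the citrate synthase gene Cs at 339 and 482 against 401 and 378 CPM. Of 14 biogenesis genes 1 fell and 1 rose, both from the PGC-1 coactivator family. Ppargc1a (PGC-1 alpha) fell from 28.0 and 35.2 to 13.4 and 12.6 CPM (log2 fold change -1.28, SE 0.16), and Pprc1 (PRC) rose from 10.2 and 9.76 to 22.7 and 24.4 CPM (1.24, SE 0.12).

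HIF-1 target genes other than Bnip3 mostly had a negative log2 fold change, and few were called. Of 26, 2 fell and 0 rose, 21 had a negative log2 fold change, and the median was -0.42. Of all tested genes 51.0% were negative. Scaling by library size left 1 of the list called lower and a median of -0.26. DESeq2 called 9 lower and the fit with sex as a covariate 5, with 0 higher in both. These fits called 12.9% and 9.48% of all genes. Adm, the adrenomedullin gene, fell from 12.6 and 14.3 to 6.56 and 5.77 CPM (-1.13), and Mxi1, a MYC antagonist, from 53.9 and 57.3 to 32.7 and 32.8 CPM (-0.76). Without WT replicate 2 the median of the list was -0.25, and without WT replicate 1 it was -0.50. Among 6 HIF subunits and regulators, Epas1, which encodes HIF-2 alpha, fell from 165 and 171 to 103 and 99.3 CPM (-0.73).

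FOXO factors and their targets gave 2 falls and 0 rises of 17, with a median of -0.52. Fbxo32, the atrogin-1 ubiquitin ligase gene, fell from 49.9 and 45.4 to 21.2 and 21.4 CPM (log2 fold change -1.16, SE 0.10), and Foxo4 from 25.4 and 22.14 to 12.4 and 13.2 CPM (-0.90). The median was -0.47 without WT replicate 1 and -0.38 without WT replicate 2. This list shares Gabarapl1 and Map1lc3b with the ATG8 family. The list of NRF2, a regulator of Sqstm1, and of its partner and target genes had 0 of 14 called by edgeR (4 up and 1 down with an unadjusted p under 0.05, 1 up by DESeq2). The median was 0.32, with 10 positive and 4 negative log2 fold changes. The 2 most abundant genes of this list were Prdx1, at 239 and 219 against 195 and 182 CPM, and Txnrd1, at 188 and 220 against 233 and 217 CPM.

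Of 21 TFEB factors and lysosomal genes, 1 fell, namely Flcn, which encodes the nutrient sensor folliculin, from 50.8 and 46.1 to 27.9 and 29.7 CPM (log2 fold change -0.75), and the median was -0.02. Among 13 tested genes of the wider Bcl2 family, the pro-apoptotic Bok fell from 33.5 and 30.9 to 16.3 and 14.8 CPM (-1.05), 12 were not called and the median was -0.33.

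**Figure D5:**
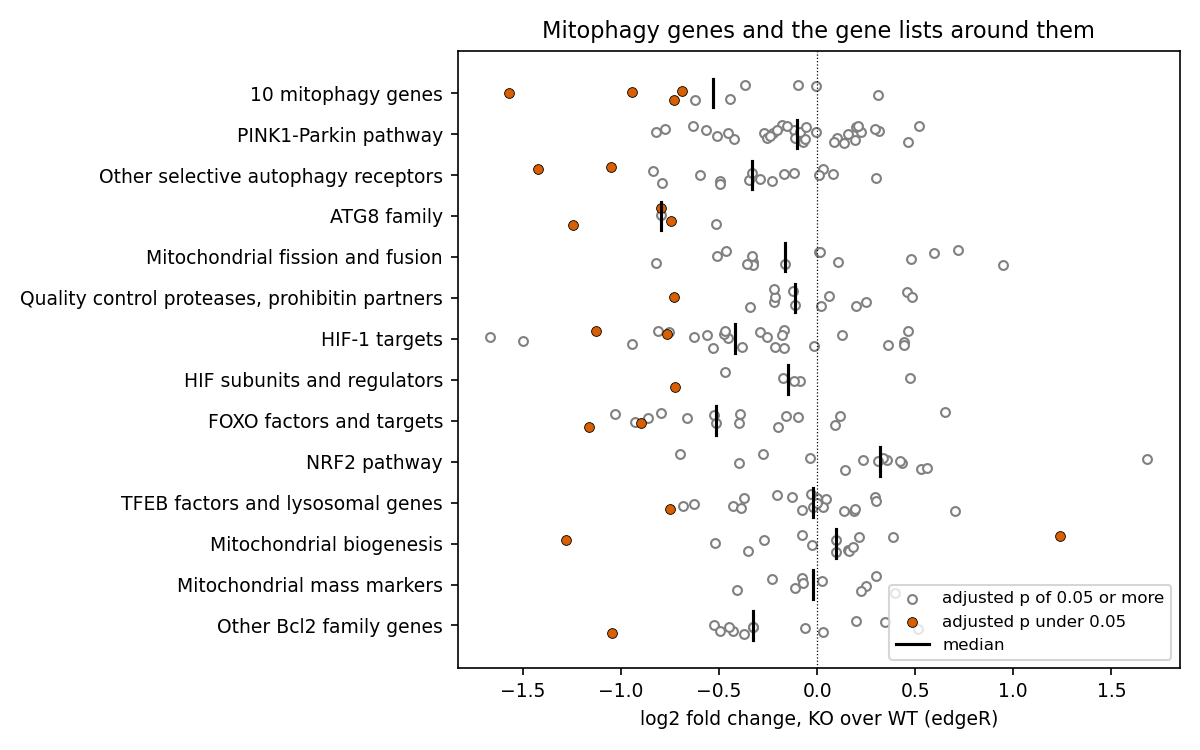
Log2 fold change (KO over WT) of every tested gene in the 13 lists and of the 10 mitophagy genes (top), with filled points for an edgeR adjusted p under 0.05 and a bar at each median. All 5 ATG8 genes lie below 0, and the NRF2 list has the highest median, 0.32.

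Some markers of other cells and of cell state differed between the genotypes in the same libraries, and others overlapped. Of 8 macrophage markers 3 rose and all 8 had a positive log2 fold change, with summed levels of 51.7 and 59.4 CPM in WT and 129 and 126 CPM in KO. Of 8 crypt base and cycling genes, 2 rose (Mki67 and Ccnb1), with sums of 250.3 and 221 CPM in WT and 322 and 330.2 CPM in KO. The list did not move as a whole, with 6 genes higher and 2 lower in KO without overlap. The 2 lower were the stem cell marker Lgr5, at 11.1 and 6.10 CPM in WT and 1.82 and 1.91 CPM in KO, and Pcna, at 130 and 93.3 against 64.5 and 70.9 CPM. Ascl2 was higher, at 2.75 and 1.81 CPM in WT and 3.90 and 6.94 CPM in KO. So was Axin2, at 13.4 and 8.54 against 17.2 and 27.4 CPM. DESeq2 called 5 of the list higher and 2 lower. Surface colonocyte genes, with 1 of 8 called (Aqp8, lower), summed to 6353 and 6545 CPM in WT and 4060 and 4459 CPM in KO. Ceacam1 and Aqp8 made up most of that sum. Slc26a3 was at 21.7 and 21.4 CPM in WT and 30.8 and 32.0 CPM in KO, Car4 overlapped between genotypes, and DESeq2 called 1 higher and 2 lower. All 6 fibroblast markers had a positive log2 fold change and 0 were called by edgeR (1 higher at an unadjusted p under 0.05, 1 by DESeq2). Their sums were 52.6 and 75.9 CPM in WT and 65.8 and 565 CPM in KO, so the rise in the sum was in KO replicate 2 alone. The neutrophil sum was lowest in WT replicate 1, at 42.1 CPM against 97.2 to 148 CPM elsewhere. Ly6g made up most of that sum, at 38.2 and 129 CPM in WT and 90.1 and 87.0 CPM in KO. S100a8, S100a9, Csf3r and Cxcr2 were instead highest in KO replicate 1. The T cell sums ran from 34.4 to 51.2 CPM and those of B and plasma cells from 6.84 to 22.2 CPM. Those of smooth muscle ran from 4.34 to 20.3 CPM. Those of endothelium ran from 4.96 to 10.3 CPM, where Emcn was at 0 in all but WT replicate 1. Goblet cell genes summed to 8930 and 12053 CPM in WT and 8827 and 7765 CPM in KO. The part of these cells in the values of the mitophagy genes was not tested. In bulk RNA, fewer cells of a type and less of a transcript per cell cannot be told apart.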

How the data were processed

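Poly(A)-selected RNA was sequenced on an Illumina instrument, per the labels' protocols. The authors deposited whole-number counts per gene that were not normalised, judged from their totals. Tools listed, without roles, in the submitters' processing notes are STAR 2.4.2a, RSEM 1.2.29 and FastQC 0.11.2, with the build mm10. With annotation release, strand setting and rounding not given in the sources used here, it is unknown how reads of overlapping or copied genes were split. Groups came from the genotype label. Replicates were numbered in accession order and pair no libraries. The sexes read from the data differ within each genotype, so no 2 libraries came from the same mouse, and p-values measure the spread between these 4 samples.

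Genes were filtered with filterByExpr (14861 kept) and scaled with TMM factors. KO was compared with WT over all genes by edgeR 4.0.16 (R 4.3.3, quasi-likelihood F-test, legacy and robust, two-sided), with Benjamini-Hochberg adjustment, a threshold of 0.05 and 2 residual degrees of freedom. Log2 CPM used an offset of 0.5. The test was checked on simulated data. A count of 0 allows up to 3 counts (0.12 to 0.136 CPM), for counting error only. Of the gene identifiers, 99.56% were in GENCODE M21 (GRCm38), which gave coordinates, exon lengths and transcripts. Of the list entries, 3 were found by identifier.

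The members and all lists were chosen with earlier results of these data known. Named list genes are up to 4 called genes per list with a mean of at least 5 CPM, by absolute log2 fold change, or else the 2 most abundant. Genes most like Bnip3 and Pink1 had the smallest Euclidean distance over log2 CPM centred on WT. Map1lc3b, Gabarapl1, Calcoco2, the marker genes and those said to be so chosen lie outside that rule. Alternatives were RLE factors, library size scaling, a minimum of CPM 1 in 2 libraries or no filter, DESeq2 1.42.0, limma-voom (limma 3.58.1), omission of mitochondrial genes and their chromosome 1 copies, sex as a covariate and omission of each library.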

Additional observations from a re-analysis of the deposited data

Results flagged for a closer look

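Bcl2l13 was the 1 gene of the 10 whose KO minus WT difference in log2 CPM had opposite signs in the 2 sexes, at -0.0422 in the male pair of libraries and 0.0347 in the female pair, a difference of 0.0769. Each value rests on 1 library per genotype, and the difference was not tested.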

How the results depend on the processing

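Over the 12 alternatives, Bnip3, Bnip3l, Pink1, Nbr1, Calcoco1, Optn and Sqstm1 had a negative and Phb2 a positive log2 fold change each time, and the signs of Fundc1 and Bcl2l13 varied. Of 120 such values, 98 moved by less than the spread between replicates and 22 by more. That spread differed between genes, so the tally does not measure the size of the shifts. For Nbr1 a move from -0.727 to -0.716 with RLE factors counted as more. For Bnip3 a move from -1.57 to -1.84 without WT replicate 1 counted as less. Among the 4 genes called in the fit of all libraries, 0 values changed sign. The loss of a call was not counted as a reversal. With RLE factors Bnip3, Bnip3l and Nbr1 lost theirs, and with library size scaling Bnip3l and Nbr1 did. Bnip3 ran from -1.84 to -1.22 with 1 library left out, and Pink1 from -1.0003 to -0.88. Library size scaling moved Pink1 to -0.78 and, over all genes, gave 604 higher and 186 lower (76.5% higher, against 47.5% with TMM). Genes called over the whole table were 255 higher and 282 lower. They became 862 and 770 without a filter, 949 and 973 with DESeq2, 696 and 713 with sex as a covariate, and 0 to 1271 and 0 to 1019 with 1 library left out. Called genes of the 13 lists, 1 higher and 14 lower, became 2 and 7 with library size scaling, 4 and 26 without a filter, 4 and 34 with DESeq2, 3 and 26 with sex as a covariate, and 0 to 9 and 0 to 31 with 1 library left out. Leaving out a library leaves a genotype with 1, assumed to vary like the other, and fewer degrees of freedom. The causes of the other shifts were not tested. No paired analysis was possible because the labels give no replicate numbers that the genotypes share, other than by sex as read from the data, which is the covariate above. Depth limited Calcoco2 and Park2, at 0 to 22 counts, and not the 10 genes, each at 216 counts or more.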
